A study of Homo sapiens with 47 samples.

Results

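The HOX cluster genes encode homeodomain transcription factors that give cells along the body axis their positional identity. They lie in 4 clusters, and within a cluster their order along the chromosome follows the order in which they are switched on and the part of the body they act in, a property called colinearity. Genes with low numbers act towards the head and those with high numbers towards the tail, and genes of the same number in different clusters form a paralog group. Polycomb complexes keep unused clusters silent and MLL complexes keep active ones open, and the TALE proteins of the MEIS and PBX families bind DNA together with HOX proteins. Posterior HOXA genes such as *HOXA9* and *HOXA10* are expressed in blood progenitors and in many leukaemias, and central HOXB genes mark intestinal epithelium. Members were the genes whose symbol is HOXA, HOXB, HOXC or HOXD followed by digits only, antisense genes excluded. They numbered 39 of the 57507 genes measured, with 11 in HOXA, 10 in HOXB, 9 in HOXC and 9 in HOXD.

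RNA was sequenced in 47 libraries from 2 human cell lines. HAP1 is near-haploid and derives from chronic myeloid leukaemia, and HCT116 is a colorectal carcinoma line. The study asked how cells adapt to a damaged *NUP58*, an essential gene for a protein of the nuclear pore, which was mutated with Cas9 in the 6 HAP1 clones C1–C6 and in 1 HCT116 clone. The HAP1 controls were wild-type cells (WT) and cells given the vector without a guide RNA (EV), with 4 libraries for each of the 8 HAP1 lines. In HCT116 there were 4 libraries of the clone and 11 of unedited cells, labelled WT (2), EV1 (3) and EV2 (4), plus 2 whose title and genotype conflict and which were used only as unedited controls. All HAP1 clones were grown from single cells, chosen as small colonies and collected at passage 1. Because each mutant line is 1 clone, the effect of the edit and the history of the clone cannot be told apart. The spread given is that between libraries of a line, which the labels do not call independent cultures. Expression is given as FPKM, fragments scaled to the length of the transcript and to the mapped fragments of the library, so levels of different genes can be set side by side. In a bulk culture, fewer cells that express a gene and less RNA per cell cannot be told apart.

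*NUP58* checked the labels in HAP1, at 34.3 to 50.4 FPKM in the 8 unedited libraries and 7.98 to 28.0 in the 24 clone libraries. In HCT116 the library labelled clone replicate 3 had 44.7 FPKM, as in the controls, while the library labelled EV2 replicate 3 had 23.9, as in the clone (23.3 to 25.3 in its other 3 libraries). Calls in HCT116 are therefore given with and without the libraries numbered 3. Without the 2 controls so numbered, the unedited HCT116 libraries had 280.8 ± 65.5 FPKM summed over the HOX genes (SD, n = 9; 275.6 ± 64.7 with them), shares of 53.2%, 40.4%, 5.32% and 1.10% for HOXA to HOXD, *HOXA9* at 87.8 ± 20.1 and *HOTTIP* at 0.139 ± 0.116. The FPKM of all genes summed to between 604053 and 654081 in HAP1 libraries and between 619798 and 721992 in those of HCT116, and the number of fragments behind a value is not known. Of 8 blood cell markers looked for in HAP1, none passed the filter, and *PTPRC*, *SPI1* and *GATA1* were listed at 0 in all 8 unedited libraries, while *POU5F1*, a gene of pluripotent cells, averaged 534 ± 216 FPKM (SD, n = 8) with *NANOG* at 0. HCT116 carried the epithelial keratins *KRT8* (710.3 ± 117 FPKM in unedited cells; SD, n = 11) and *KRT19* (457 ± 169), with the brush border gene *VIL1* at no more than 0.136.

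Most HOX genes were in the same state in both cell lines. With expression set at 1 FPKM or more on average over all libraries of a cell line, clones included, 19 of the 39 genes were expressed in both, 6 in HAP1 only, 3 in HCT116 only and 11 in neither. HOXA was the most used cluster, with 9 of its 11 genes expressed in both, and *HOXA9* was the most abundant HOX gene in each, at 60.5 ± 15.3 FPKM in unedited HAP1 (SD, n = 8) and 87.8 ± 21.0 in unedited HCT116 (SD, n = 11). The genes found only in HAP1 were *HOXB2*, *HOXC8*, *HOXD3*, *HOXD4*, *HOXD11* and *HOXD13*, and those found only in HCT116 were *HOXB5*, *HOXB7* and *HOXB8*. The 11 below the threshold in both were *HOXA2*, *HOXA4*, *HOXB1*, *HOXC4*, *HOXC5*, *HOXC11*, *HOXC12*, *HOXD1*, *HOXD9*, *HOXD10* and *HOXD12*. *HOXB1*, a hindbrain gene, was listed at 0 in all 47 libraries. In the unedited libraries alone, a setting chosen after seeing the data, the counts were 18 in both, 4 in HAP1 only, 4 in HCT116 only and 13 in neither. There *HOXD3* (0.945 FPKM), *HOXD11* (0.473) and *HOXC9* (0.638) averaged below 1 in HAP1, and *HOXC9* counted as HCT116 only. *HOXB2* lay close to the threshold in HCT116, with 1.01 FPKM in EV2 and 0.821 over all 11 controls. By position, again over all libraries, 3 of the 8 genes of paralog groups 1 to 3 were expressed in both cell lines, 7 of the 15 of groups 4 to 8 and 9 of the 16 of groups 9 to 13.

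**Figure D1:**
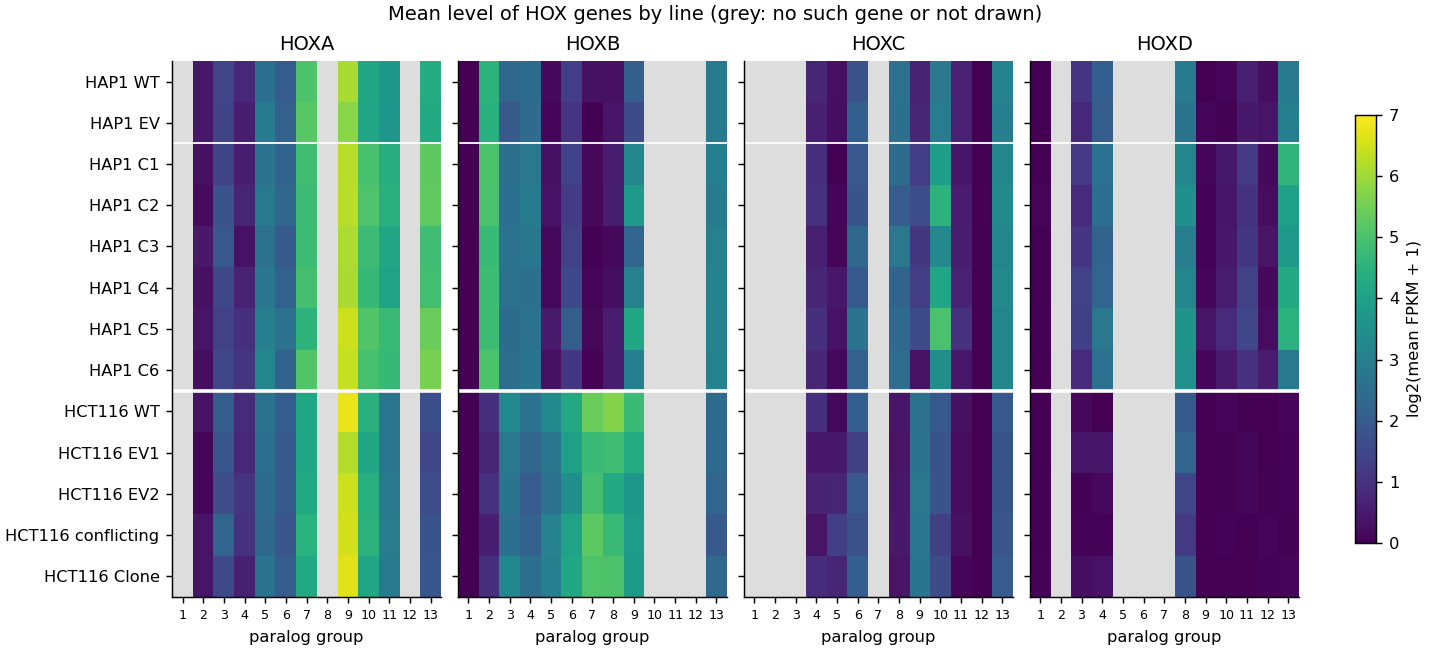
Mean level of the HOX genes as log2(mean FPKM + 1), by cluster (panels), paralog group (columns, grey where no such gene exists or it is not drawn) and line (rows, white lines between unedited HAP1, HAP1 clones and HCT116). Most HOXA genes drawn are filled in both cell lines, HOXB groups 5 to 8 mostly in HCT116, and HOXD groups 4 and 13 in HAP1. *HOXD8* is on in both and on average higher in HAP1, and *HOXD3* is faint in HAP1.

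Between HAP1 lines the number of expressed genes varied little. WT had 23 genes at a mean FPKM of at least 1, EV 22, C1 25, C2 24, C3 25, C4 25, C5 26 and C6 24. The unedited HAP1 libraries held 236.9 ± 29.9 FPKM over the 39 genes (SD, n = 8), of which 65.8% came from HOXA, 16.9% from HOXB, 9.82% from HOXC and 7.50% from HOXD. In the unedited HCT116 libraries the sum was 275.6 ± 64.7 (SD, n = 11), with 54.0% from HOXA, 39.4% from HOXB, 5.58% from HOXC and 1.01% from HOXD. The share of HOXB was 14.7% to 18.8% in every unedited HAP1 library and 26.0% to 47.9% in every unedited HCT116 library, so the ranges did not overlap.

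Unedited HAP1 and unedited HCT116 were compared with limma on log2(FPKM + 1), in which a gene was tested when it averaged 1 FPKM or more in the libraries compared and called at an adjusted p under 0.05. Of 26 HOX genes tested, 12 were higher in HAP1 and 9 were lower, where 39.5% of the 13538 genes tested were called higher and 28.5% lower, so most genes differed between the cell lines and the members' count was not far from that of all genes. By cluster, HOXB had 6 genes lower and 2 higher in HAP1 of 9 tested, and HOXC had 3 higher and 1 lower of 5. HOXD had 3 higher of 3, and HOXA had 4 higher and 2 lower of 9. Clusters were not tested against each other.

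Central HOXB genes were the clearest difference. *HOXB7* had 0 to 0.778 FPKM in the 8 unedited HAP1 libraries and 23.4 to 44.3 in the 11 HCT116 libraries, a log2 fold change of -4.86 (SE 0.135, adjusted p = 1.08e-18 by limma). *HOXB8* was at 0 to 0.734 against 5.12 to 54.3 (-4.12, SE 0.428, adjusted p = 1.85e-08), and *HOXB5* at 0 to 0.255 against 3.07 to 12.05 (-2.64, SE 0.215, adjusted p = 3.31e-10). For these 3 genes the 2 cell lines did not overlap, and HAP1 was at or near 0. *HOXB6* (-2.62, SE 0.268, adjusted p = 1.40e-08) and *HOXB9* (-2.28, SE 0.252, adjusted p = 4.79e-08) were also lower in HAP1 but were expressed there, at means of 1.28 and 2.66 FPKM. At both ends of HOXB the direction turned. *HOXB13* was higher in HAP1 by 0.60 (SE 0.149, adjusted p = 0.00115 by limma), and *HOXB2*, which patterns the hindbrain, had 15.8 to 26.4 FPKM in HAP1 and 0.187 to 1.78 in HCT116 (3.64, SE 0.132, adjusted p = 1.37e-16).

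The ends of HOXA and HOXD were on in HAP1 and low or off in HCT116. The same direction held for *HOXB13* and for *HOXC13*, which averaged 8.22 FPKM over all HAP1 libraries and 2.69 over all those of HCT116. *HOXD13*, a gene of distal limb and hindgut, had 5.16 to 7.66 FPKM in the unedited HAP1 libraries and 0 to 0.128 in HCT116 (log2 fold change 2.85, SE 0.0799, adjusted p = 1.19e-18 by limma). *HOXA13*, its paralog in HOXA, had 16.7 to 22.2 against 1.32 to 3.07 FPKM (2.68, SE 0.103, adjusted p = 3.90e-16). The antisense RNA *HOTTIP*, transcribed from the end of HOXA next to *HOXA13*, followed with 11.3 ± 4.21 FPKM in HAP1 (SD, n = 8) and 0.156 ± 0.128 in HCT116 (SD, n = 11). *HOXC8* (2.16, SE 0.107, adjusted p = 4.33e-14) and *HOXD4* (1.88, SE 0.126, adjusted p = 1.04e-11) were higher in HAP1 as well, and *HOXC9* was lower (-2.005, SE 0.113, adjusted p = 4.38e-13). The neighbouring genes *HOXC8* and *HOXC9* thus ran in opposite directions, at 5.03 and 0.638 FPKM in HAP1 and 0.343 and 5.56 in HCT116. Without the HCT116 libraries numbered 3 the number of members called was also 21, and the log2 fold changes of these genes moved by no more than 0.15, the value for *HOXB8*. The smallest calls among the genes lower in HAP1 were *HOXA3* (-0.46, adjusted p = 0.0375 by limma) and *HOXA9* (-0.52, adjusted p = 0.00289).

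**Figure D2:**
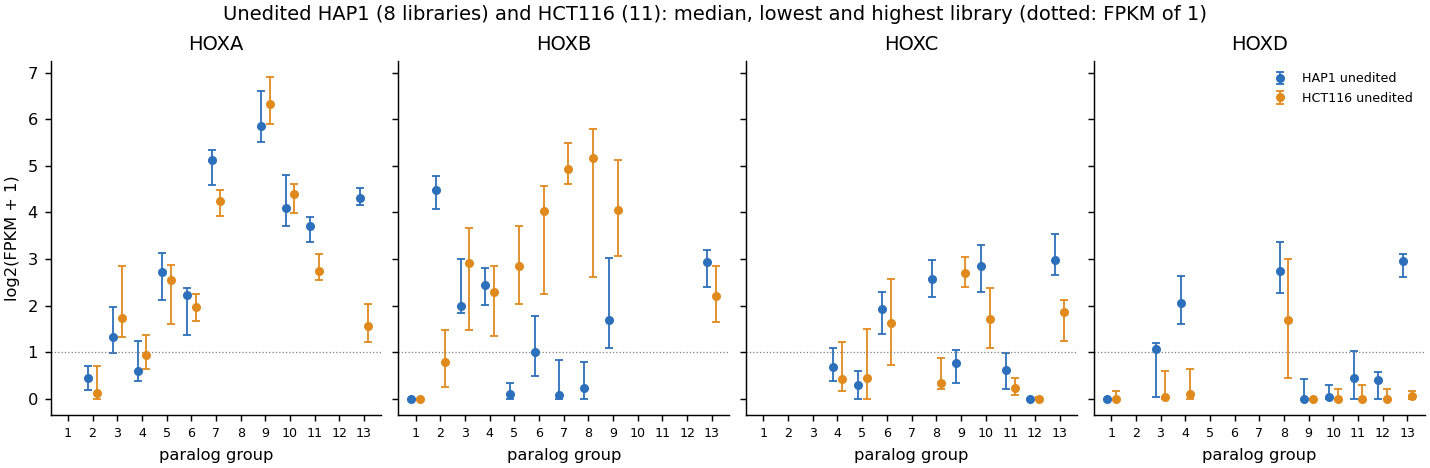
Level of the HOX genes as log2(FPKM + 1) in unedited HAP1 (blue, 8 libraries) and unedited HCT116 (orange, 11 libraries), with the median as a point and the lowest and highest library as bars. The ranges are apart for 14 genes, of which 6 are higher in HCT116 (*HOXB5* to *HOXB9* and *HOXC9*) and 8 in HAP1 (*HOXA7*, *HOXA11*, *HOXA13*, *HOXB2*, *HOXC8*, *HOXC13*, *HOXD4* and *HOXD13*). The share of all genes with ranges apart was not counted. By limma, 39.5% of all genes tested were called higher in HAP1 and 28.5% lower, which is a different measure from ranges apart. Whether the number 14 is particular to HOX genes was therefore not tested.

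Most of the HOX genes that rose in the HAP1 clones were high-numbered genes of HOXA, HOXC and HOXD. In the mean of the 6 clones against WT, 25 HOX genes were tested and 7 were called higher and 0 lower, against 3.17% of all 13180 genes called higher and 3.43% lower. They were *HOXC10*, *HOXD13*, *HOXA13*, *HOXA10*, *HOXA11*, *HOXC9* and *HOXD4*. Of the 11 tested members of paralog groups 9 to 13, 6 rose and all 11 had a positive log2 fold change with a median of 0.69. Of the 9 tested in groups 4 to 8, 1 rose (median 0.23), and of the 5 tested in groups 1 to 3, 0 did (median 0.10). Without a replicate block no gene of HOXB was called in this comparison, and neither *HOXB13* nor *HOXC13* was among the 7. Positions were not tested against each other. The median over all 25 was 0.27, and over all genes tested it was -0.02. Leaving out WT replicate 1 or WT replicate 4 lowered the 7 calls to 4, which were *HOXC10*, *HOXD13*, *HOXA13* and *HOXA11* in both cases. Blocking on replicate number, since same-numbered libraries of WT, EV and C1–C4 deviated together, called 12 members, the same 7 and *HOXB9*, *HOXD8*, *HOXD11*, *HOXB2* and *HOXC6*, all higher. The share of all genes called is not given for this or any other alternative fit, here or below. Their counts therefore cannot be set against all genes. No tested member had all 24 clone libraries above or all below the 8 unedited libraries, where 0.144% of genes were above and 0.129% below.

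**Figure D3:**
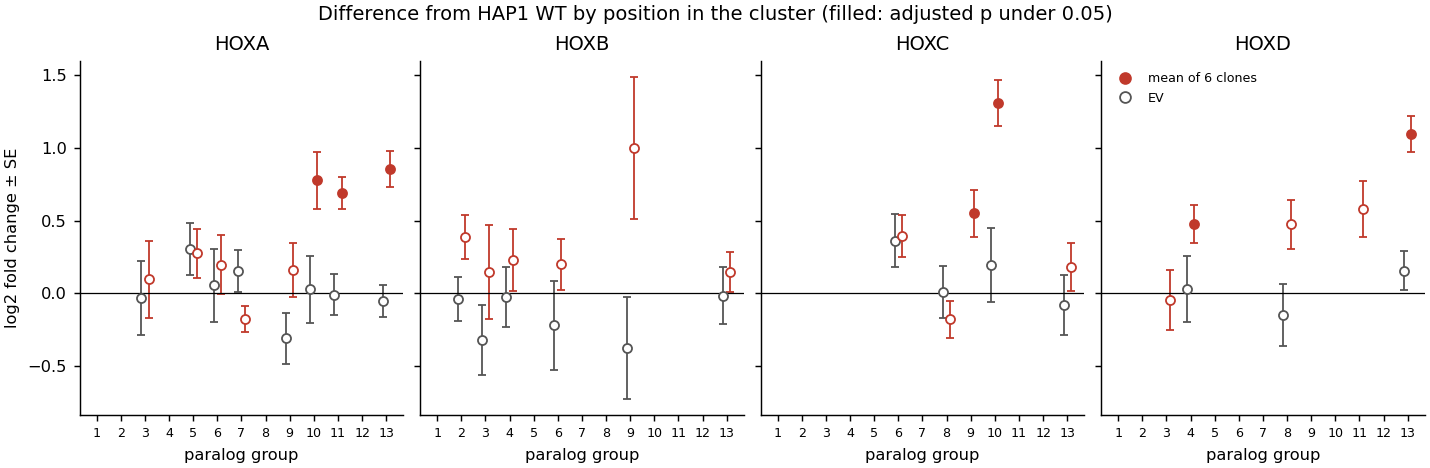
Log2 fold change against HAP1 WT with its SE for the tested HOX genes, by cluster and paralog group, for the mean of 6 clones (red) and for EV (grey), with filled points at an adjusted p under 0.05. The 7 filled points are *HOXA10*, *HOXA11*, *HOXA13*, *HOXC9*, *HOXC10*, *HOXD4* and *HOXD13*, and none of the EV points is filled. Both series share the WT libraries.

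EV, the vector control, gave 0 calls among 22 HOX genes tested with limma and 0 at an unadjusted p under 0.05, where 0.0152% of the 13153 genes were called higher and 0.0228% lower. Of these 13153 genes, 274 had an unadjusted p under 0.05. The log2 fold changes of HOX genes in EV lay between -0.38 for *HOXB9* and 0.36 for *HOXC6*. Each clone and EV were compared with the same 4 WT libraries, so the comparisons below are not independent of each other.

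The promoters of 4 of the genes that rose are shown here because they range widely in CG content. Each runs 5′ to 3′ from 250 bases before to 50 bases after the start of a RefSeq transcript on GRCh38.p14, with every CG in capitals. The windows are *HOXA13* (chr7:27200042-27200341, minus strand, 44 CG), *HOXD13* (chr2:176092471-176092770, plus strand, 24 CG), *HOXA11* (chr7:27185183-27185482, minus strand, 13 CG) and *HOXD4* (chr2:176151300-176151599, plus strand, 4 CG).
HOXA13: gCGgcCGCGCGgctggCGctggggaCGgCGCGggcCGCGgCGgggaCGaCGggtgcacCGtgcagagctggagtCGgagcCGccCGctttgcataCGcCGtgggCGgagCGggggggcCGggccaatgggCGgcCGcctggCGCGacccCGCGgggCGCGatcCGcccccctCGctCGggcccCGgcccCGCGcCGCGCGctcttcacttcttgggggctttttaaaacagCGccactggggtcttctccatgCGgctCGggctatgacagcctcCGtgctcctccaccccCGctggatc
HOXD13: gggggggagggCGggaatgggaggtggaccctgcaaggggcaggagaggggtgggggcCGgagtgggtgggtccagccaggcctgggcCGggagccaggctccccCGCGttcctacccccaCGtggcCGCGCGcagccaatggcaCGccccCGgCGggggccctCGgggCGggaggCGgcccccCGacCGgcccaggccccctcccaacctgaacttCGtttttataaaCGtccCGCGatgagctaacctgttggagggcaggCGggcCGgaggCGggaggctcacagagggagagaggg
HOXA11: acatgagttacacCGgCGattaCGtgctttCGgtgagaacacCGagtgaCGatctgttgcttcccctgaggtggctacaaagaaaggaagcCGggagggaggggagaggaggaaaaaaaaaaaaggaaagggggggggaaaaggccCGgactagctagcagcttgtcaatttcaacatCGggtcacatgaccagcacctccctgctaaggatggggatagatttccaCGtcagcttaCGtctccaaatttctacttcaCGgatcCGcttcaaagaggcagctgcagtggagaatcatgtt
HOXD4: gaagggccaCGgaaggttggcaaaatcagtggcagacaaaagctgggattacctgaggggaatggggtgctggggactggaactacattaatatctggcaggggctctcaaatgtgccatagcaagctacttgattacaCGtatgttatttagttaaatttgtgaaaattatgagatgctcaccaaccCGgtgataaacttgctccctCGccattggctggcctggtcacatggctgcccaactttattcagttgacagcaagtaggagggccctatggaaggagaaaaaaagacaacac

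RefSeq windows were given for 20 of the 39 members, 27 windows in all, with a median of 22 CG and a range of 0 to 44, and over all 35116 windows of this length the median was 14. Several of the 27 belong to *HOXA3*, and *HOXC4* and *HOXC5* have the same window, counted for each. The median and the shares below are therefore not per gene. Among the 19 members without one were *HOXB2* to *HOXB9*, *HOXC8* to *HOXC13* and *HOXD9*. The letters TATAAA, counted on both strands, were in 5 of the 27 HOX windows (18.5%) and in 11.5% of all windows. The *HOXD13* window holds TATAAA on both strands in overlapping positions, and the other 3 shown hold none. TGATNNAT, the letters of a joint PBX and HOX site, were in 3 of 27 windows (11.1%) and in 7.40% of all, and in none of the 4 shown. These are matches of letters and say nothing of binding.

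*HOXD13* (chromosome 2, 176092721 to 176095944, plus strand; GRCh38, GENCODE release 44), the last gene of HOXD, differed most between clones. Its FPKM was 6.36, 5.16, 6.96 and 6.48 in the 4 WT libraries and 7.33, 5.86, 7.66 and 7.38 in EV. It was 26.2, 20.2, 23.5 and 20.3 in C1, 23.2, 17.4, 23.6 and 21.1 in C5, 23.1, 13.9, 16.1 and 17.5 in C4, 14.6, 15.7, 18.7 and 9.16 in C2 and 12.9, 13.6, 12.3 and 10.96 in C3. In these 5 clones every library lay above all 8 unedited libraries. C6, at 6.40, 4.66, 7.28 and 5.91, overlapped the unedited libraries. In the mean of 6 clones the log2 fold change was 1.10 (SE 0.125, adjusted p = 9.65e-07 by limma). The difference among the 6 clones gave a moderated F of 30.5 (adjusted p = 2.61e-08).

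*HOXC10* (chromosome 12, 53985065 to 53990279, plus strand), which acts in hindlimb motor neurons, had the largest mean change of the tested members. WT had 5.43, 8.88, 3.89 and 5.01 FPKM and EV 7.57, 8.25, 4.00 and 7.07. C5 was highest with 31.98, 30.8, 29.0 and 31.1, followed by C2 with 24.1, 23.4, 23.5 and 16.8, C4 with 18.5, 18.5, 15.1 and 12.8, and C1 with 15.7, 14.5, 13.1 and 12.8. In C1, C2, C4 and C5 every library was above all unedited ones. C6, at 10.0, 9.57, 7.10 and 13.5, and C3, at 8.68, 11.98, 5.88 and 8.68, overlapped the unedited libraries. The log2 fold change was 1.31 in the mean of 6 clones (SE 0.158, adjusted p = 2.23e-06 by limma), and the clones differed among themselves (F = 19.7, adjusted p = 1.40e-06).

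*HOXA13* (chromosome 7, 27193503 to 27200091, minus strand) was higher in all 6 clones by their means. WT had 16.7, 22.2, 20.0 and 18.5 FPKM and EV 18.8, 18.6, 19.4 and 17.2. C6 had 40.2, 48.4, 36.9 and 64.6, C5 37.9, 46.2, 34.5 and 44.9, C2 41.6, 39.4, 31.3 and 40.0 and C1 37.1, 38.5, 34.3 and 39.6, so these 4 clones stood clear of the unedited range. C3 (30.1, 30.7, 22.0 and 29.4) and C4 (28.1, 40.8, 20.2 and 24.4) overlapped it in 1 library each. Over the 6 clones its mean log2 fold change was 0.85 (SE 0.125, adjusted p = 3.92e-05 by limma), and the clones differed (F = 6.53, adjusted p = 0.00471).

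*HOXA11* (chromosome 7, 27181157 to 27185232, minus strand), a gene of the zeugopod and uterus, had 10.3, 13.8, 11.7 and 12.01 FPKM in WT and 12.2, 9.25, 12.8 and 13.3 in EV. It was 19.8, 29.7, 25.8 and 25.9 in C5, 25.9, 21.0, 23.1 and 28.6 in C6, 21.7, 19.6, 22.5 and 18.4 in C2 and 21.1, 19.1, 20.3 and 17.0 in C1, all above the unedited libraries. In C3 (17.2, 20.2, 16.4 and 11.98) and C4 (16.6, 17.9, 13.9 and 12.9) the ranges met. The log2 fold change was 0.69 in the mean of 6 clones (SE 0.110, adjusted p = 0.000122 by limma), with a difference among clones (F = 7.77, adjusted p = 0.00172). *HOXA11* shares 726 exonic bases with its antisense gene *HOXA11-AS*. The counting is not stated to use strand, so reads of such pairs, which 20 of the 39 members have, cannot be told apart. *HOXA11-AS* itself averaged 17.9 ± 4.82 FPKM in the 4 WT libraries and 25.0 ± 8.92 over the 24 clone libraries (SD), and its difference of 0.42 on the log2 scale did not pass (adjusted p = 0.249 by limma).

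**Figure D4:**
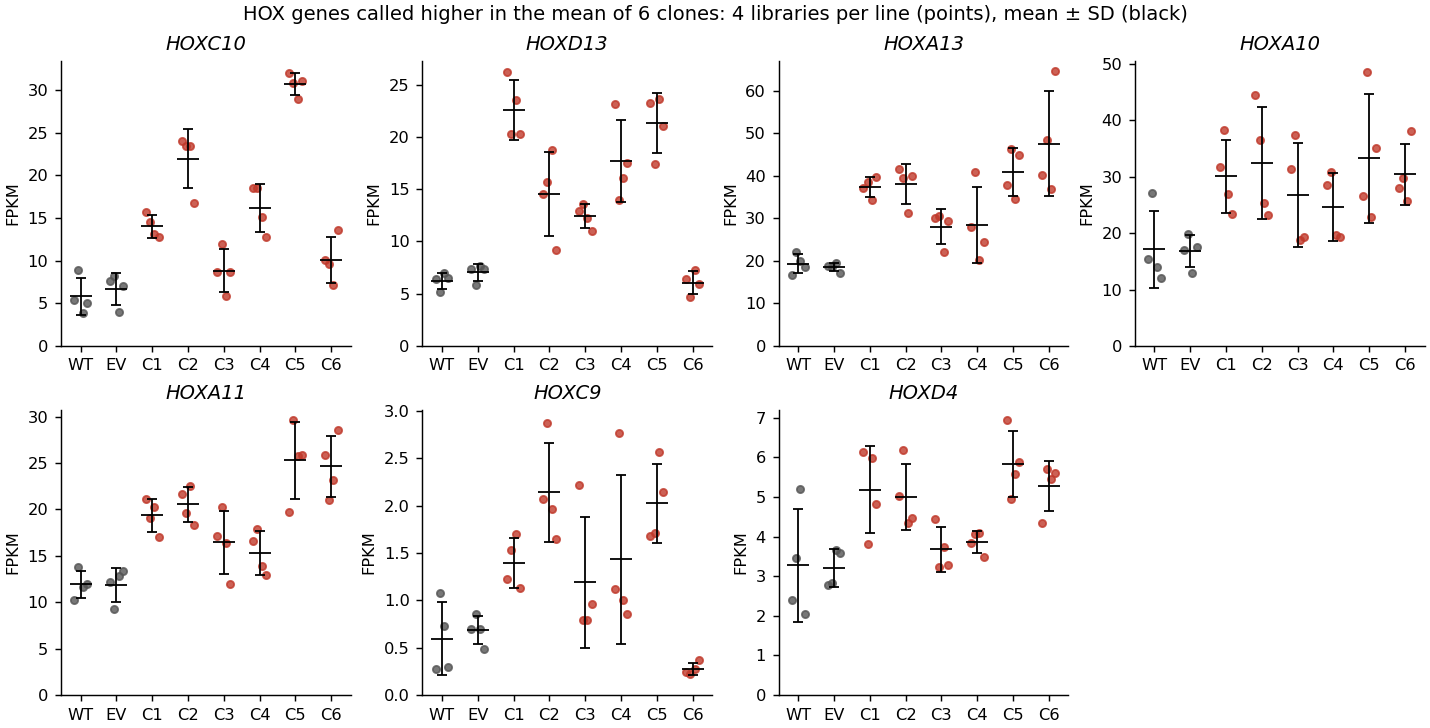
FPKM of the 7 HOX genes called higher in the mean of 6 clones, in each of the 4 libraries of every HAP1 line (points; grey for WT and EV, red for clones), with the mean and SD in black. C5 is highest for *HOXC10*, while C6 overlaps WT for *HOXD13* and has the lowest mean for *HOXC9*.

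*HOXA10*, *HOXC9* and *HOXD4* rose less firmly, and these are the calls that were lost without WT replicate 1 or WT replicate 4. *HOXA10*, a regulator of blood progenitors, averaged 17.1 ± 6.78 FPKM in WT, 16.8 ± 2.86 in EV and between 24.6 ± 5.97 (C4) and 33.3 ± 11.4 (C5) in the clones (SD, n = 4 each). WT replicate 2, at 27.1, lay inside the range of every clone, while the other 7 unedited libraries were between 11.98 and 19.8. Its log2 fold change was 0.78 (SE 0.196, adjusted p = 0.0136 by limma), and its neighbour *HOXA9* differed by 0.16 (SE 0.186, adjusted p = 0.702). *HOXC9* had 0.270 to 1.08 FPKM in WT and 0.489 to 0.852 in EV, and 1.13 to 2.88 in C1, C2 and C5 together. C6 stood at 0.222 to 0.365, the lowest line (log2 fold change of the mean of 6 clones 0.55, SE 0.159, adjusted p = 0.0341 by limma; difference among clones F = 9.94, adjusted p = 0.000338). *HOXC9* and *HOXC6* share exonic bases in the annotation, so part of their reads could have been assigned to either. *HOXD4*, the only gene outside paralog groups 9 to 13 among the 7, averaged 3.28 ± 1.42 in WT, 3.21 ± 0.477 in EV and between 3.68 ± 0.566 (C3) and 5.84 ± 0.835 (C5) in the clones (log2 fold change 0.48, SE 0.129, adjusted p = 0.0220).

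*HOXB9*, the last gene of the contiguous part of HOXB, varied widely between libraries of 1 line. Its 4 values were 2.12, 7.14, 2.57 and 1.40 FPKM in WT, 3.93, 23.4, 4.87 and 1.25 in C1, 12.1, 30.2, 5.20 and 2.58 in C2 and 5.05, 19.4, 2.98 and 1.65 in C4. In 6 of the 8 HAP1 lines the library numbered 2 was the highest. C5, at 12.1, 27.3, 11.8 and 16.9, was the only clone with every library above all unedited ones for this gene. In the mean of 6 clones the log2 fold change was 1.00 with an SE of 0.490 and did not pass (adjusted p = 0.253 by limma), but did with the replicate block (SE 0.305, adjusted p = 0.0304). Without the 8 libraries numbered 2, an alternative chosen after seeing the data, 9 members were called in the mean of 6 clones in place of 7.

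Clone by clone, 0 to 7 members were called against WT. The number of all genes called was 12 to 96 in C1 to C4, 994 in C5 and 1561 in C6. C1 had 3 of 23 tested higher (*HOXD13*, *HOXC10*, *HOXA13*), where 0.289% of all genes were called higher and 0.19% lower, and 1 member passed without C1 replicate 1 or without C1 replicate 4. With the replicate block *HOXA10* was also called in C1 (adjusted p = 0.0255 by limma). C2 had 4 of 23 higher, the same 3 and *HOXA11*, against 0.343% and 0.389% of all genes, and leaving out WT replicate 1 or 4 left 1 of the 4 while leaving out WT replicate 3 or C2 replicate 1, 2 or 3 left 2. *HOXA11* in C2 had an adjusted p of 0.0335 by limma and of 0.0504 with the replicate block. In C3, 0 of 23 passed, and 0.0379% and 0.0531% of all genes were called. An unadjusted p under 0.05 by limma was found in C3 for 4 members and for 633 of all 13179 genes. *HOXD13* was nearest there, with a log2 fold change of 0.89 (SE 0.136) and an adjusted p of 0.0595 by limma, and with the replicate block it was 0.0226. C4 had 1 of 25 higher, *HOXD13* (1.35, SE 0.169, adjusted p = 0.0126 by limma), where 0.0914% and 0.0686% of all genes were called, and with the block *HOXC10* joined it (adjusted p = 0.00464 by limma). In C4 the count was 0 without WT replicate 1, WT replicate 4 or C4 replicate 4, and 2 without WT replicate 2.

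C5 had 7 of 25 tested members higher and 0 lower, where 3.28% of all genes were called higher and 4.27% lower. They were *HOXC10* (2.27, SE 0.194, adjusted p = 0.000191 by limma), *HOXB9* (2.15, SE 0.379, adjusted p = 0.00833), *HOXD13* (1.62), *HOXA13* (1.04), *HOXA11* (1.01), *HOXC9* (0.95) and *HOXC6* (0.93). The median over all 25 tested members was 0.58, and that of all genes was 0.01. Without WT replicate 2 the count was 11. With a replicate block, although the numbers did not pair the C5 libraries with WT, it was 13, of which *HOXA7* alone was lower (-0.50, adjusted p = 0.0312). C6 had 4 of 22 higher and 0 lower, where 6.28% of all genes were called higher and 5.39% lower. These were *HOXA13* (1.23, SE 0.172, adjusted p = 0.00180), *HOXA11* (0.98, SE 0.134, adjusted p = 0.00152), *HOXA10* (0.85, SE 0.227, adjusted p = 0.0394) and *HOXA5* (0.63, SE 0.176, adjusted p = 0.0454), all from HOXA. The count in C6 was 2 when WT replicate 1 or any C6 library was left out and 7 without WT replicate 2.

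The clones therefore differed from each other as well as from WT. A moderated F test over the 6 clones called 9 of the 25 tested members, against 15.8% of all 13180 genes, or 2086. With the replicate block it called 11, adding *HOXB9* (adjusted p = 0.00607 by limma) and *HOXD8* (0.00964). Besides *HOXD13*, *HOXC10*, *HOXC9*, *HOXA11* and *HOXA13*, they were *HOXC6* (adjusted p = 0.00956 by limma), *HOXA7* (0.0158), *HOXC8* (0.0345) and *HOXB6* (0.0449). *HOXC6* averaged 5.36 ± 1.27 FPKM in C5 and 4.03 ± 0.645 in C3, and 2.55 to 3.40 in the other clones. *HOXA7*, a central HOXA gene, was lowest in C5, at 21.9 ± 1.90, and highest in C6, at 33.3 ± 2.40 (SD, n = 4 each), beside 31.8 ± 6.04 in WT. *HOXC8* was lowest in C2, at 3.12 ± 0.347, and highest in C3, at 5.81 ± 1.28. Leaving C6 out of this test left 5 members called, *HOXC10*, *HOXD13*, *HOXA11*, *HOXA13* and *HOXC6*. The share of HOX FPKM that came from HOXD was 7.40% ± 1.41 in WT, 7.25% ± 0.827 in C6 and between 9.22% and 11.8% in the other 5 clones.

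Members below the filter were compared singly by exact two-sided permutation tests of 4 libraries against 4, of which 273 were run over the 39 genes, 6 clones and EV, without adjustment. The smallest p that the 70 arrangements allow is 0.0286. Among genes that the filter had kept out, it was reached with no overlap by *HOXC9* in C1, *HOXD9* in C5, *HOXD10* in C5 and *HOXD3* in C6. The share of all genes below the filter that reach it was not counted. With this many unadjusted tests some reach it by chance, so these genes are described and not called. *HOXD10* averaged 0.0716 FPKM in WT and 0.813 in C5. *HOXD9* averaged 0.0130 in WT and 0.317 in C5. *HOXD3* in C6 averaged 0.815 against 1.17 in WT, and turned to the other direction when EV was the control.

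Genes next to the clusters and those that act on them were read from fixed lists. Among 10 tested neighbours of the clusters, 1 was higher and 2 were lower in the mean of 6 clones. In that comparison 3.17% of all genes were called higher and 3.43% lower. The gene that rose was *EVX1*, a homeobox gene beyond *HOXA13*, from 1.29 ± 0.262 FPKM in WT and 1.16 ± 0.529 in EV to 5.29 ± 0.432 in C5 (SD, n = 4 each; log2 fold change of the mean 0.75, SE 0.163, adjusted p = 0.00408 by limma). The genes that fell were *SNX10* (-0.56, adjusted p = 0.00371) and *CBX5* (-0.32, adjusted p = 0.0364), which codes for a heterochromatin protein. Among single clones, *EVX1* was called in C5 and C6, *SNX10* in C2 (-0.79, adjusted p = 0.0322 by limma) and C6, and *CBX5* in C6, and 0 of 10 were called in the HCT116 clone. Of the noncoding genes of the clusters, 0 of 7 tested were called in the mean of 6 clones and in C5, and 2 rose in C6, *HOTTIP* (1.72, SE 0.471, adjusted p = 0.0415) and *HOXA11-AS* (0.84, adjusted p = 0.0456). *HOTTIP* ranged from 19.7 to 95.6 FPKM in C6 and from 6.98 to 20.2 in WT, so these groups met. In C6, 6.28% of all genes were called higher and 5.39% lower.

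The regulators moved little. For the counts that follow, the shares of all genes called higher and lower were 3.17% and 3.43% in the mean of 6 clones. They were 3.28% and 4.27% in C5 and 6.28% and 5.39% in C6. Of 9 TALE cofactors, 1 was called in the mean of 6 clones, *PBX2*, lower by -0.42 (adjusted p = 0.00283 by limma), with 0 of 9 in C5. In C6, 2 of 9 rose, among them *MEIS1* (0.91), and *PBX2* fell (-1.16). Of 23 Polycomb genes, 0 were called in the mean of 6 clones, where *RBBP7* was lower in C5 (-0.51), and *RBBP7* (-0.32) and *RING1* (-0.86) were lower in C6. Of 16 MLL and elongation genes, *MLLT3*, a partner of MLL in leukaemia, was the only one called, higher in the mean of 6 clones (0.59, adjusted p = 0.0169), in C5 (1.22) and in C6 (0.93). Of 6 tested ParaHox and retinoid genes, 0 were called in the mean of 6 clones, C5 or C6. Of the epithelial markers, *KRT8* (-1.29) and *KRT18* (-0.67) fell in the mean of 6 clones and *KRT8* fell in C5 (-1.60) and C6 (-2.13), while *EPCAM* rose in C5 (2.97). Both pluripotency markers tested stayed below the call, and their part in the HOX values was not tested.

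No HOX gene was called in the HCT116 clone against its controls. Of 22 tested, 0 were called by limma and 0 had an unadjusted p under 0.05. Across all 12960 genes 0% were called higher and 0% lower, although 1342 had an unadjusted p under 0.05. Without the libraries numbered 3 and without the 2 controls with conflicting labels the count of HOX genes was also 0. Log2 fold changes of members lay between -0.33 and 0.60, with a median of 0.15. *HOXA13*, which rose in HAP1, differed by 0.25 (SE 0.149, adjusted p = 0.568), and *HOXD13* reached no more than 0.145 FPKM in any clone or control library. Whether the change differs between HAP1 and HCT116 was not tested.

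Among the HCT116 controls the spread was wide for HOXB. *HOXB8* had 54.3 and 47.5 FPKM in the 2 WT libraries, 35.9, 42.0 and 5.62 in EV1 replicates 1, 2 and 3, 6.16, 5.12, 27.1 and 35.0 in EV2 replicates 1 to 4, and 44.3 and 7.69 in the libraries titled EV1 replicate 4 and WT replicate 4, whose labels conflict. The clone had 35.9, 25.4, 34.8 and 31.9. The 11 control values thus fell between 5.12 and 7.69 FPKM in 4 libraries and between 27.1 and 54.3 in the other 7, and this split did not follow the labels. *HOXB7*, the gene beside it, had no such gap, at 23.4 to 44.3 in all 11 controls. The libraries were not regrouped by these values.

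**Figure D5:**
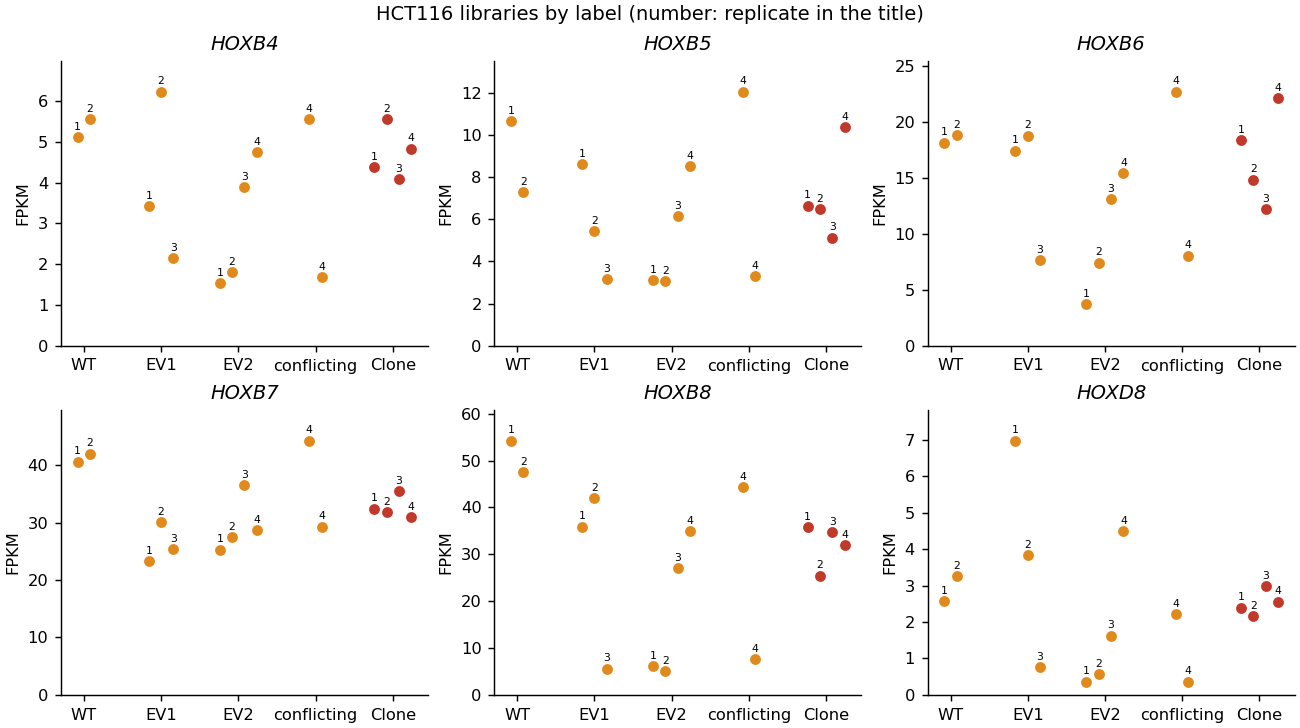
FPKM of 5 central HOXB genes and *HOXD8* in each HCT116 library, by label, with the replicate number of the title above each point (orange for controls, red for the clone). EV2 replicates 1 and 2, EV1 replicate 3 and the library titled WT replicate 4 are the lowest 4 points for *HOXB4*, *HOXB5*, *HOXB6*, *HOXB8* and *HOXD8*, but not for *HOXB7*.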

How the data were processed

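RNA from 32 HAP1 and 15 HCT116 libraries was sequenced by the authors, whose notes name STAR, RSEM and FastQC without versions and the GRCh38 build. The values used are the FPKM per gene that the authors deposited for 57507 genes, and their column names resemble Cufflinks output, so the tool that made them, and how it assigned reads shared by overlapping genes, was not settled. The strand setting and fragment counts are not given in the sources used here. Relative depth, read from the steps between low values, ran from 0.75 to 1.157, and no 2 libraries were identical. FPKM limits precision for low genes in an unknown way.

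Groups followed the sample labels, and the 2 HCT116 libraries with conflicting labels entered as unedited controls only. A gene was tested when its mean FPKM over the libraries of a comparison was at least 1. Values were taken as log2(FPKM + 1), which understates changes of low genes, and compared with limma 3.58.1 (R 4.3.3) with an intensity trend. Benjamini-Hochberg adjustment ran over all genes tested, with a threshold of 0.05. Each clone and EV were compared with the 4 WT libraries, the mean of 6 clones and the differences among clones came from 1 model, and the HCT116 clone was compared with 11 controls. Members below the filter were compared by exact permutation. Nothing in the labels says that replicates were independent cultures, so p-values measure the spread between these libraries.

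All 39 members were placed by their level, with full statistics for those called, at most 12 per comparison, and at most 4 genes named from each companion list. The members and lists were chosen with earlier results of these data known. Epithelial, blood and pluripotency markers were companion lists too, as were the fusion partners *BCR* and *ABL1*, of which 0 of 2 were called in the mean of 6 clones, C5, C6 or the HCT116 clone. Replicate numbers paired WT with C1, C2, C3, C4 and EV, where all 4 correlations of same-numbered deviations exceeded 0.1 (for C1, 0.15 to 0.476), and not with C5 (-0.032 to 0.674), C6 (-0.365 to 0.418) or in HCT116 (-0.364 to 0.213). Gene positions are from GENCODE release 44, which matched 56373 identifiers (98.1%), and promoter sequences are from RefSeq. In the annotation 8 members share exonic bases with another HOX gene (*HOXB3*, *HOXB4*, *HOXB6*, *HOXC4*, *HOXC6*, *HOXC9*, *HOXD10* and *HOXD11*), so their values are uncertain. Other genes of the same strand, which are not members, also share exonic bases with some members. Among those members are *HOXA9*, *HOXA10* and *HOXC10*, so part of their reads could have been assigned to either gene. Some genes are not reported here by name. Alternatives changed the pseudocount, filter, scaling, control, moderation, block and libraries used. On simulated data with 200 genes changed by 1.5 on the log2 scale, 172 of 197 tested were called in the comparison of C1 with WT. In that run 13 unchanged genes were called too. The HOX changes in the mean of 6 clones were all smaller than 1.5, so this rate does not carry over to them. Tables were prepared with Python 3.11.15, pandas 2.3.3 and numpy 2.4.6, and plots with matplotlib 3.10.9.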

Additional observations from a re-analysis of the deposited data

Results flagged for a closer look

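Over 38 of the members, in 17 of 230 groups of 4 libraries, 1 library stood apart from the other 3 for a HOX gene by Dixon's criterion for a gap against the range, a mark that chance gives in about 1 of 20 groups. In HAP1 the library that stood apart was highest for *HOXB4* in C1 replicate 2 (8.72 FPKM), *HOXB9* in C1 replicate 2 (23.4), *HOXC9* in C3 replicate 1 (2.22), *HOXC13* in C3 replicate 2 (11.9) and *HOXA6* in C4 replicate 2 (5.13). The same held for *HOXC9* in C4 replicate 2 (2.76), *HOXA5* in C5 replicate 3 (8.59), *HOXB3* in C5 replicate 2 (10.4) and *HOXA9* in C6 replicate 4 (120.1). It was lowest for *HOXB2* in EV replicate 3 (19.2), *HOXC6* in C1 replicate 2 (1.83), *HOXC10* in C2 replicate 4 (16.8) and *HOXA13* in C3 replicate 3 (22.0). In HCT116 it was *HOXA10* in EV2 replicate 2 (14.8, lowest), *HOXC6* in EV2 replicate 3 (4.90, highest), *HOXA6* in clone replicate 1 (1.97, lowest) and *HOXC9* in clone replicate 3 (3.85, lowest).

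The 6 HAP1 clones differed among themselves at 9 HOX genes by limma's moderated F test. The adjusted p was 2.61e-08 for *HOXD13*, 1.40e-06 for *HOXC10*, 0.000338 for *HOXC9*, 0.00172 for *HOXA11*, 0.00471 for *HOXA13*, 0.00956 for *HOXC6*, 0.0158 for *HOXA7*, 0.0345 for *HOXC8* and 0.0449 for *HOXB6*.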

How the results depend on the processing

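Of 285 alternative counts of HOX genes called, 232 stayed within 1.5 times the reported count, 28 were lower and 25 higher, and the causes were not tested. Shares of all genes called under these alternatives are not given, so a higher count is not a result about HOX genes. EV and the HCT116 clone gave 0 under every alternative run, and these counts are among the 232. HAP1 against HCT116 gave 14 to 27 in place of 21. With WT and EV together as the control, C1 had 6 members called, C2 had 9, C3 and C4 had 2 each, C5 had 13, C6 had 9 and the mean of 6 clones had 12. With EV alone it was 5 in C1, 13 in C5 and 8 in C6. With the unmoderated test it was 1 in C1, 0 in C2, 0 in C4, 4 in C5 and 1 in C6. At p under 0.01 and a fold over 2 it was 2 in C2, 2 in C4, 1 in C6 and 2 in the mean of 6 clones. All HAP1 libraries in 1 model gave 1 in C3, 2 in C4 and 13 in C5, limma without trend 1 in C3 and 2 in C4, TPM or median-ratio scaling 2 in C4, and no filter 2 in C6. Leaving out clone C6 gave 5 differences among clones in place of 9.

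In the paired fit (replicate block), C1 had 4 members called, C3 had 1 member called, C4 had 2, C5 had 13 and the mean of 6 clones had 12, and 11 genes differed among clones. With it *HOXA11* in C2 no longer passed (adjusted p = 0.0504 by limma). Leaving out 1 library at a time gave 1 to 4 members for C1, 1 to 3 for C2, 0 for C3 throughout, 0 to 2 for C4, 5 to 11 for C5, 2 to 7 for C6, 4 to 10 in the mean of 6 clones, 7 to 10 differences among clones and 19 to 22 in HAP1 against HCT116. Without the HAP1 libraries numbered 2, chosen after seeing the data, 9 members were called in the mean of 6 clones, 7 of them shared, and 9 differences among clones, 7 of them shared. Of 1754 alternative values of single HOX genes, 180 lost their call and 1 turned direction, *HOXD3* in C6, at 0.13 on the log2 scale with EV as the control. The rule of p and fold was not run on the differences among clones.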
